A study of Mus musculus with 196 samples.

Results

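The late cornified envelope (Lce) genes, the S100a genes, and loricrin (Lor), involucrin (Ivl), Crct1 and the fused-type S100 genes Flg2, Rptn and Crnn are described here in mouse skin. Members were chosen by symbol: every gene whose symbol begins with Lce or S100a, plus Lor, Flg, Flg2, Hrnr, Rptn, Ivl, Crnn and Crct1, measured by a probe set that names 1 gene only, with the probe set of highest mean taken for a gene with several. This gave 35 of the 18820 genes of the array: 10 Lce1 genes, 4 Lce3 genes, Lce6a, 14 S100a genes, 3 fused-type S100 genes, and Lor, Ivl and Crct1. Of 44 protein-coding genes in RefSeq that fit the symbols, the 9 others were Flg, Hrnr, Lce1a1, Lce1j, Lce1k, Lce1m, Lce3d, Lce3e and S100a7l2, which no probe set naming 1 gene measured and which were not analysed here. All 35 lie on chromosome 3, within 3.05 Mb (GRCm38).

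Skin of 100 untreated mice aged 8 weeks was measured on 97 arrays of tail skin, 14 of back skin labelled as anagen (when the hair follicle grows) and 85 of back skin labelled as non-anagen. Every mouse came from the same backcross, in which F1 females from FVB/N mothers and Mus spretus fathers were mated to FVB/N males, so each animal carried its own mixture of the parental genomes. The back was shaved before freezing, and the tail arrays carry no hair cycle label. Tail arrays came from 48 females and 49 males, anagen back arrays from 8 females and 6 males, and non-anagen back arrays from 41 females and 44 males.

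Cornified cells of the epidermis replace their plasma membrane with the cornified envelope, a protein shell cross-linked by transglutaminases. Involucrin is laid down early, loricrin makes up much of the shell, and late cornified envelope proteins are added in the outermost living layers. Fused-type S100 proteins join a calcium-binding S100 domain to long repeats and fill or coat the cornifying cell, whereas S100A proteins are small calcium-binding dimers with roles from hair cuticle structure to inflammation.

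All values are log2 expression, differences are log2 differences from limma with p adjusted over all 18820 genes, and a difference of 1 is a 2-fold change. Between tissues and between hair cycle states, calls required a difference of at least 1 and an adjusted p under 0.05. Levels of different genes were not compared, since each has its own probes. Near-identical Lce genes may share probe sequence, so the separation of single Lce members is uncertain. In females, the probe sets of Kdm5d, Uty and Eif2s3y, all on the Y chromosome, read between 1.74 and 5.37, which gives the low end of the scale, and values in that range may understate a difference. Back arrays were in batches 1 and 2 and tail arrays in batches 3 and 4, so tissue and batch cannot be told apart, and all anagen arrays were in batch 1. By correlation with the median profile of their group, 5 tail arrays and 1 non-anagen back array stood apart. Without these 6 arrays the members called between tissues numbered 11 higher and 1 lower in tail skin, against 10 and 1 with them, and the anagen comparison kept 3 and 0.

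The sequences just upstream of 8 members are shown because the Lce1 genes differed unequally between tissues and because Crnn, Flg2 and Lor were higher, lower and not called in tail skin against non-anagen back skin. They are the 80 bases before the RefSeq transcription start (GRCm38.p6), 5′ to 3′ on the strand of the gene, with matches to the motifs named after them in capitals. Lce1g, Lce1h and Lce1d were called higher in tail skin, and Lce1c and Lce1b were not.
Lce1g (chr3:92752339-92752418, minus strand): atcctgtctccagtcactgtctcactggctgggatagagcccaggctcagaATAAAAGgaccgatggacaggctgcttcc
Lce1h (chr3:92765066-92765145, minus strand): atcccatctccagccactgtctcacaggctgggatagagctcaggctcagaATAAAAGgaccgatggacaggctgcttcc
Lce1d (chr3:92687211-92687290, minus strand): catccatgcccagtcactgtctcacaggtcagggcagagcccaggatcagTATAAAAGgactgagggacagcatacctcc
Lce1c (chr3:92679167-92679246, plus strand): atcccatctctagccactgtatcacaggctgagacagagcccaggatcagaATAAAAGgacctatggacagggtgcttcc
Lce1b (chr3:92656927-92657006, minus strand): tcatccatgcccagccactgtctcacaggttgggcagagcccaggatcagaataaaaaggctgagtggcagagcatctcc
Crnn (chr3:93144709-93144788, plus strand): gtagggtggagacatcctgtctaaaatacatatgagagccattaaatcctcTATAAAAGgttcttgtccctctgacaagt
Lor (chr3:92083143-92083222, minus strand): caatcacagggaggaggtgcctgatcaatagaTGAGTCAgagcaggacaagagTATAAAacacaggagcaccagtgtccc
Flg2 (chr3:93197193-93197272, plus strand): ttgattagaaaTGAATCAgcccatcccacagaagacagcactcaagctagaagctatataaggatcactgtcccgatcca

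Entries were found for 30 of the 35 members, and the 250 bases before the start were searched on both strands. The TATA box letters TATAAA were in 8 of the 30 (26.7%), against 13.0% of 27025 promoters. The shorter TATA-like letters ATAAAAG, chosen after the Lce1 promoters were seen and overlapping TATAAA where TATAAAAG occurs, were in 13 of the 30 (43.3%), against 5.14% of all promoters. The 13 include the Lce1 promoters that prompted the choice, whose pairs had a median identity of 78.2% over the 80 bases. This share is therefore not a test of enrichment. In Lce1g, Lce1h, Lce1d and Lce1c the letters ATAAAAG began at base -29, whereas Lce1b has no match in the bases shown, and in Lce1d and Crnn the capitals span both TATAAA and ATAAAAG. The letters TGANTCA, bound by AP-1, were in 6 of the 30 (20%), against 6.87%, and the first capitals in Lor and the only ones in Flg2 mark them. The grainyhead letters AACNNGTT were in 2 of the 30 (6.67%), against 3.63%. Promoter entries were found for 9 of the 10 Lce1 genes, all but Lce1f. Over the 80 bases, median identity was 83.5% in the 6 Lce1 pairs with both genes called higher in tail. It was 77.4% in the 20 pairs with 1 called and 73.7% in the 10 with neither. Among single pairs Lce1c, not called, was 90% identical to Lce1h and 86.2% to Lce1g. Lce1d, called, was 78% identical to Lce1h and 79.5% to Lce1g. A relation of identity to the calls was not tested. A match is a description of these letters and not a site.

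Against non-anagen back skin, the members with the largest differences were S100a3, Crnn, Rptn, Lce1g and Lce3c, which were higher in tail skin, and Flg2, which was lower. Of the 35 members, 10 were called higher in tail skin than in non-anagen back skin, beside 3.94% of all genes, and 1 was called lower, beside 2.02%. At any size, 21 of the 35 passed as higher and 11 as lower, beside 43.7% and 43.4% of all genes. The balance over all genes depended on array scaling: 741 genes were called higher and 381 lower, against 489 and 620 with arrays brought to a common median and 537 and 524 after renewed quantile normalization, while 10 members were called higher under each. The median member difference was 0.49, and the median size of the difference regardless of sign was 0.56 over members and 0.30 over all genes. In 3 members the tail and non-anagen back arrays did not overlap at all (S100a3, Lce1g and Flg2), beside 1.9% of all genes.

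**Figure D1:**
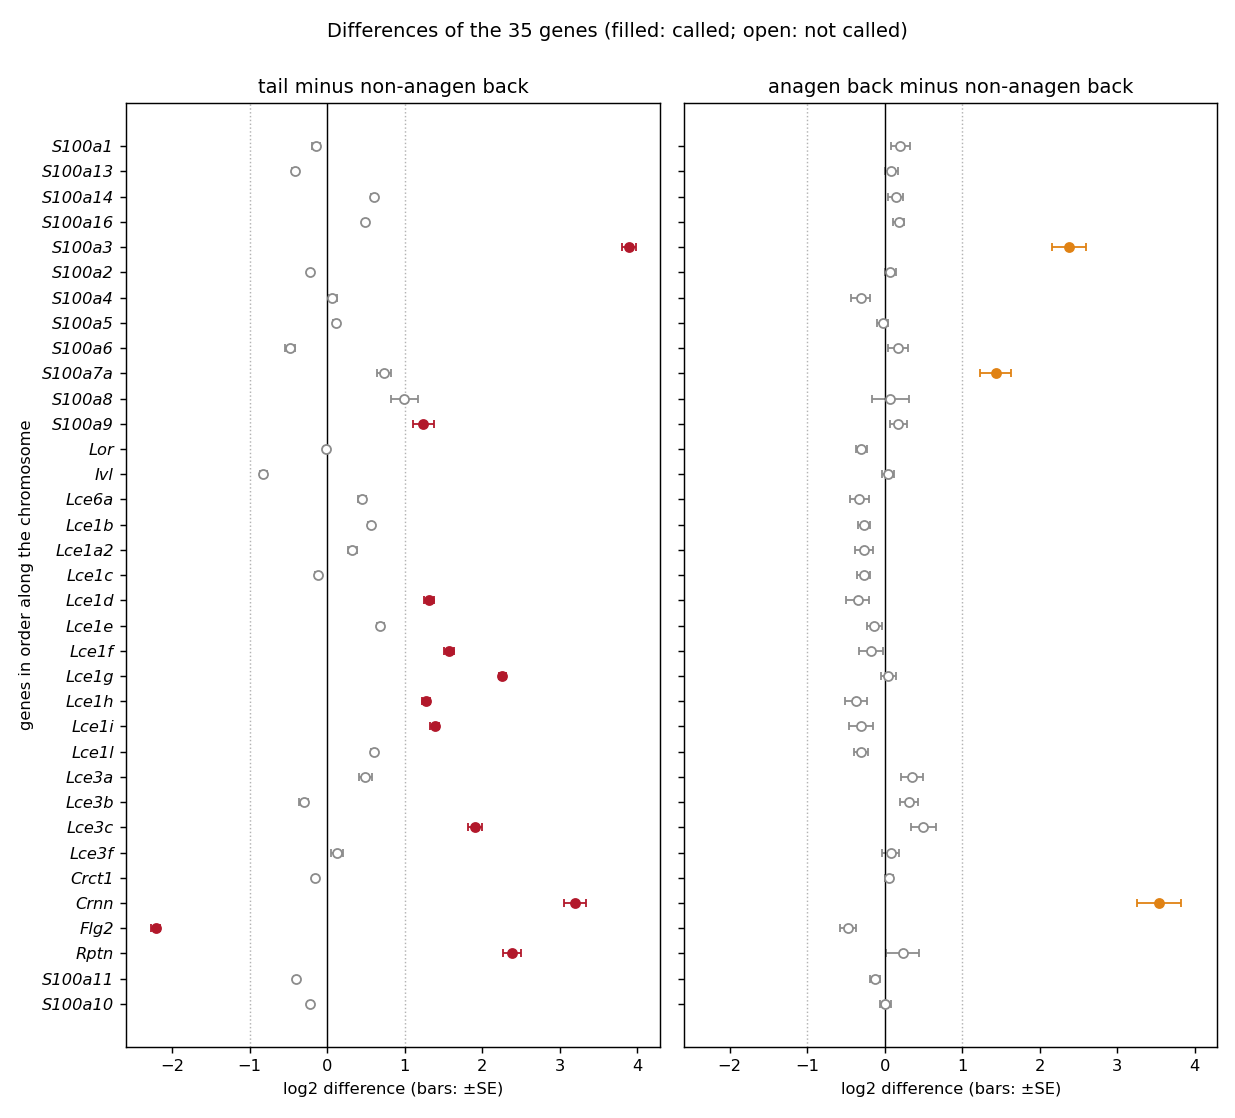
Log2 difference (x axis) of each of the 35 genes in their order along chromosome 3, for tail minus non-anagen back (left) and anagen back minus non-anagen back (right). Points are limma estimates with SE, filled where called, and dotted lines mark a size of 1. Called differences reach from -2.21 for Flg2 to 3.89 for S100a3 in tail skin, while only S100a3, S100a7a and Crnn are called in anagen skin.

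Among the fused-type S100 genes, Flg2, which encodes filaggrin-2 of the cornified layer, was lower in tail skin. It was 7.55, 9.22 and 10.34 (lowest, median and highest) in tail skin, 9.43, 10.89 and 11.97 in anagen back skin, and 10.80, 11.45 and 12.10 in non-anagen back skin. Every tail array was below every non-anagen back array. The difference was -2.21 ± 0.06 (SE; adjusted p = 2.05e-85), the 43rd lowest of all genes, and it was lower in tail in all 82 mice with both tissues. Against anagen back skin Flg2 fell by 1.74 ± 0.12 (adjusted p = 4.59e-31).

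Rptn, whose product repetin is an S100-domain protein of cornifying epithelia, was higher in tail skin. It was 7.33, 9.01 and 11.23 in tail skin, 5.71, 7.01 and 7.87 in anagen back skin, and 3.98, 6.70 and 8.22 in non-anagen back skin. Of the 97 tail arrays, 83 were above every non-anagen back array, and Rptn was higher in tail in all 82 mice. The difference was 2.38 ± 0.11 (adjusted p = 2.82e-52), and against anagen back skin it was 2.14 ± 0.21 (adjusted p = 2.99e-18).

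Crnn encodes cornulin, which in human is known from squamous epithelia. It was 5.38, 8.20 and 9.58 in tail skin, 4.96, 8.61 and 11.46 in anagen back skin, and 4.04, 4.86 and 6.25 in non-anagen back skin. Non-anagen arrays were low throughout, 95 of the 97 tail arrays were above all of them, and the anagen arrays spread over the whole scale. The tail difference was 3.19 ± 0.14 (adjusted p = 2.34e-56), whereas tail minus anagen back was -0.30 ± 0.27 (adjusted p = 0.302), which did not pass. Within the 14 mice with anagen backs, tail minus back ran from -6.06 to 3.95 (SD 3.01), a spread that the pooled SE understates.

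**Figure D2:**
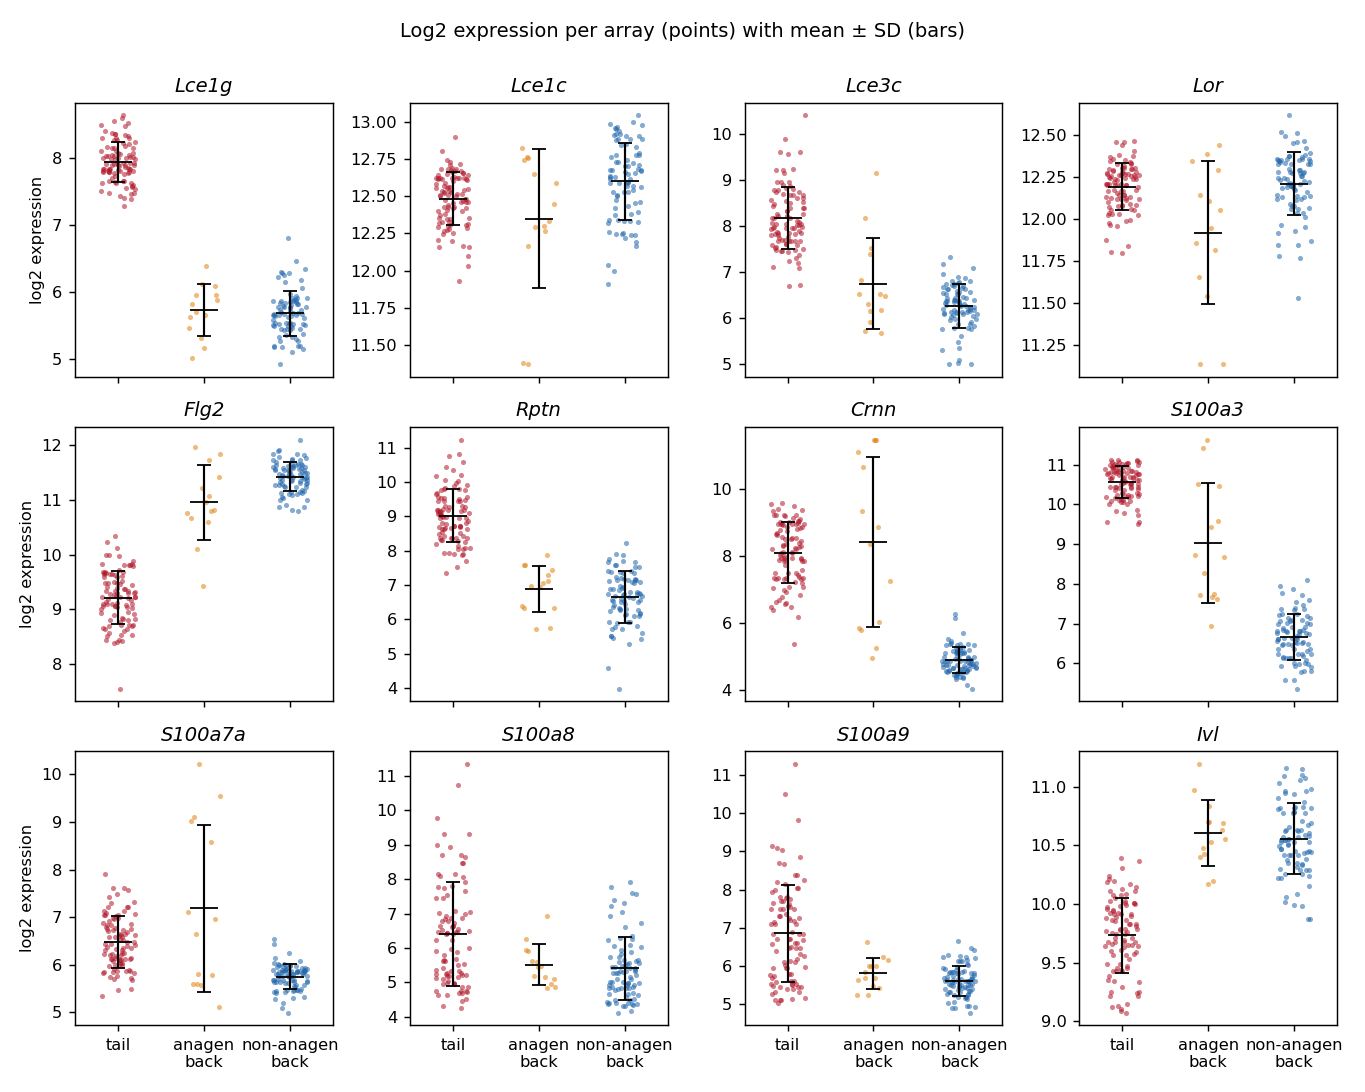
Log2 expression (y axis, a separate scale in each panel) of 12 genes in every array, with tail, anagen back and non-anagen back from left to right. Bars give mean ± SD (n = 97, 14 and 85). Lce1g and S100a3 separate tail from non-anagen back completely, Lor does not, and Crnn in anagen back runs from 4.96 to 11.46.

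The Lce1 genes encode envelope proteins of the outermost cell layers, and 5 of the 10 measured were called higher in tail skin, none lower. Lce1g was 7.29, 7.91 and 8.63 in tail skin, 5.02, 5.76 and 6.39 in anagen back skin, and 4.92, 5.67 and 6.80 in non-anagen back skin. Its tail arrays overlapped neither back group, and the difference from non-anagen back was 2.26 ± 0.05 (adjusted p = 7.96e-108). Against anagen back it was 2.21 ± 0.09 (adjusted p = 1.62e-58).

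Lce1f was 7.91, 8.69 and 9.42 in tail skin, 5.75, 6.93 and 7.75 in anagen back skin, and 5.59, 7.04 and 8.70 in non-anagen back skin. Lce1i was 9.71, 10.52 and 11.14 in tail skin, 6.87, 8.89 and 9.88 in anagen back skin, and 7.94, 9.16 and 10.73 in non-anagen back skin. Both overlapped with non-anagen back skin, and 45 tail arrays for Lce1f and 22 for Lce1i lay above all non-anagen arrays. Lce1f was higher by 1.57 ± 0.07 (adjusted p = 5.75e-59) and Lce1i by 1.38 ± 0.06 (adjusted p = 1.06e-53).

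Lce1d was 8.05, 8.87 and 9.83 in tail skin, 5.82, 7.31 and 8.21 in anagen back skin, and 6.34, 7.66 and 8.72 in non-anagen back skin. Lce1h was 12.18, 12.61 and 13.03 in tail skin, 8.83, 11.04 and 11.99 in anagen back skin, and 10.36, 11.29 and 12.35 in non-anagen back skin. For Lce1h, 93 of the 97 tail arrays were above every non-anagen array, and for Lce1d 67 were. Lce1d was higher by 1.32 ± 0.06 (adjusted p = 3.51e-50) and Lce1h by 1.28 ± 0.05 (adjusted p = 1.54e-58), and both were higher in tail in all 82 mice. Against anagen back skin, Lce1f, Lce1g and Lce1h had no overlap with tail skin, the 3 such members beside 1.94% of all genes.

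The other 5 Lce1 genes differed less. Lce1e (0.69 ± 0.04), Lce1l (0.60 ± 0.04), Lce1b (0.56 ± 0.04) and Lce1a2 (0.32 ± 0.06) were higher at an adjusted p of 6.4e-08 or below but under the size limit. Lce1c fell by 0.12 ± 0.04 (adjusted p = 0.00125). The 10 neighbours therefore ranged from -0.12 to 2.26, with a median of 0.98. Of those called, Lce1f, Lce1g, Lce1h and Lce1i are neighbours on the chromosome, and Lce1e, not called, lies between them and Lce1d.

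Of the 4 Lce3 genes, whose human counterparts are known for induction after barrier damage, Lce3c was called. Lce3c was 6.70, 8.04 and 10.40 in tail skin, 5.69, 6.50 and 9.15 in anagen back skin, and 5.0, 6.29 and 7.33 in non-anagen back skin. Of the tail arrays, 90 of 97 were above all non-anagen back arrays. The difference was 1.91 ± 0.09 (adjusted p = 1.71e-50), and against anagen back 1.42 ± 0.18 (adjusted p = 4.75e-13). Lce3a was at 0.49 and Lce3b at -0.31, both past the adjusted p but under the size limit. The Lce3a median in non-anagen back, 5.13, lies within the low end, so its difference may be understated. Lce3b averaged 3.71 in tail and 4.02 in non-anagen back, within the low end, so its difference cannot be read as expression. In females, Kdm5d averaged 4.20 in tail and 4.63 in non-anagen back, Eif2s3y 3.20 and 3.51, and Uty 3.30 and 3.37. Lce3f at 0.12 did not pass (adjusted p = 0.131). Lce6a was higher by 0.45 ± 0.06 (adjusted p = 4.17e-13), also under the size limit.

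The major structural envelope genes were close between the tissues or lower in tail. Lor was 11.80, 12.21 and 12.47 in tail skin, 11.13, 12.00 and 12.45 in anagen back skin, and 11.53, 12.23 and 12.62 in non-anagen back skin, a difference between tail and non-anagen back of -0.02 ± 0.03 (adjusted p = 0.542). Ivl was 9.07, 9.76 and 10.39 in tail skin, 10.17, 10.60 and 11.20 in anagen back skin, and 9.87, 10.55 and 11.16 in non-anagen back skin. It fell by 0.82 ± 0.05 in tail skin (adjusted p = 5.33e-43), with 61 of 97 tail arrays below every non-anagen array and 81 of 82 mice lower in tail. Ivl was under the size limit here but passed it at -1.03 with the arrays brought to a common median and at -1.06 after renewed quantile normalization. Crct1, a small cysteine-rich protein gene next to the Lce cluster, was 11.75, 12.00 and 12.37 in tail skin, 11.95, 12.28 and 12.49 in anagen back skin, and 11.77, 12.17 and 12.51 in non-anagen back skin, with a tail difference of -0.16 ± 0.02 (adjusted p = 2.24e-11).

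Among the 14 S100a genes, S100a3 and S100a9 were called higher in tail skin and none lower. S100a3 encodes a calcium- and zinc-binding protein of the hair cuticle. It was 9.51, 10.64 and 11.12 in tail skin, 6.95, 8.70 and 11.63 in anagen back skin, and 5.36, 6.65 and 8.10 in non-anagen back skin. The difference between tail and non-anagen back was 3.89 ± 0.09 (adjusted p = 3.54e-100), the 74th highest of all genes, and between tail and anagen back 1.53 ± 0.17 (adjusted p = 4.66e-15). S100a3 was higher in tail in all 82 mice with non-anagen backs and in 11 of 14 with anagen backs. Within those 14 mice the difference ran from -1.894 to 3.625 (SD 1.59), a spread that the SE of 0.17, pooled over all arrays, understates.

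S100a8 and S100a9 encode the subunits of calprotectin, which is abundant in neutrophils and is made by stressed keratinocytes. S100a9 was 5.02, 6.71 and 11.29 in tail skin, 5.22, 5.76 and 6.61 in anagen back skin, and 4.76, 5.60 and 6.64 in non-anagen back skin. S100a8 was 4.26, 6.40 and 11.36 in tail skin, 4.82, 5.46 and 6.92 in anagen back skin, and 4.11, 5.27 and 7.91 in non-anagen back skin. Tail arrays spread far more than back arrays in S100a9 (SD 1.28, against 0.39 in non-anagen back) and reached as low as the back. S100a9 was higher by 1.24 ± 0.14 (adjusted p = 5.82e-16), in 67 of 82 mice. S100a8 was higher by 0.995 ± 0.178 (adjusted p = 1.2e-07), just under the size limit, in 54 of 82 mice, and it was called at 1.04 without the arrays that stood apart. The mean of 10 neutrophil markers per array ran from 4.18 to 5.20 in tail skin, 4.34 to 5.28 in anagen back skin and 4.34 to 5.09 in non-anagen back skin, with Cxcr2 called higher (1.90), Mpo called lower (-1.44) and 8 not called. These list means all lay within the low end of the scale, where a difference may be understated.

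The other S100a genes changed less. S100a4, known from fibroblasts and migrating cells, was 8.10, 8.90 and 9.81 in tail skin, 7.07, 8.56 and 9.38 in anagen back skin, and 7.60, 8.89 and 9.82 in non-anagen back skin, with a tail difference of 0.07 ± 0.06 (adjusted p = 0.26) that turned to -0.14 and -0.18 under the other array scalings. S100a6 (calcyclin) was 8.23, 9.04 and 10.73 in tail skin, 8.45, 9.63 and 10.75 in anagen back skin, and 8.37, 9.57 and 10.31 in non-anagen back skin, with a tail difference of -0.48 ± 0.06 (adjusted p = 2.58e-13). Of the other 9, S100a5, S100a7a, S100a14 and S100a16 passed as higher in tail without reaching the size limit, between 0.12 and 0.73. S100a5 had medians of 5.32 in tail and 5.22 in non-anagen back, within the low end, which limits how its difference can be read. S100a1, S100a2, S100a10, S100a11 and S100a13 passed as lower, between -0.42 and -0.15. S100a2 averaged 3.74 in tail and 3.96 in non-anagen back, also within the low end, so its difference cannot be read as expression either. In females, the Y-linked probe sets averaged 3.20 in tail and 3.51 in non-anagen back for Eif2s3y, 4.20 and 4.63 for Kdm5d, and 3.30 and 3.37 for Uty.

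Against anagen back skin, which shares the tail arrays with the comparison above, 9 members were called higher in tail skin, beside 3.33% of all genes, and 1 lower, beside 1.69%. The 9 were S100a3, S100a9, Lce1d, Lce1f, Lce1g, Lce1h, Lce1i, Lce3c and Rptn, and the 1 was Flg2. Crnn differed by -0.30 from anagen back and by 3.19 from non-anagen back. S100a9, higher by 1.06 ± 0.27 (adjusted p = 0.000191), fell under the size limit at 0.87 and 0.95 under the other array scalings.

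Other genes of cornification and of other cell types moved between the tissues too. Of 22 other envelope genes, 8 were called higher in tail and none lower, led by Sprr2b (6.51), Sprr2d (4.64), Sprr1b (4.48) and Tchh (3.45). Of 19 genes for filaggrin processing and envelope cross-linking, 4 were called higher and none lower: the transglutaminases Tgm3 (3.76) and Tgm1 (1.31), the peptidylarginine deiminase Padi3 (2.18) and the lipoxygenase Alox12b (1.13). All 8 hair shaft markers and 8 of 10 inner root sheath markers were called higher in tail. Averaged per array, the inner root sheath list ran from 6.51 to 10.01 in tail skin, 6.30 to 11.05 in anagen back skin and 5.45 to 6.39 in non-anagen back skin. Of 12 keratinocyte stress genes 9 were called higher and none lower, and their mean ran from 7.89 to 10.63 in tail skin, 6.33 to 7.24 in anagen back skin and 6.0 to 7.93 in non-anagen back skin. Of 10 skeletal muscle markers 8 were called lower and none higher, and none of the basal epidermal (8), S100 partner (9), fibroblast (7) or white adipocyte (6) lists held a called gene. Of 8 suprabasal genes 2 were called higher and 1 lower, with Krt2 at 7.59 and Krt77 at -6.01. Of 15 regulators of late differentiation 2 were higher (Maf at 1.53 and Ovol1 at 1.15) and 1 lower (Satb1 at -1.08). Of 12 macrophage and dendritic markers 1 was higher (Mrc1 at 1.23) and 2 lower (Cd207 at -1.70 and Cd74 at -1.51), and of 7 sebaceous markers 1 was higher and 2 lower. None of 4 Schwann cell markers was called. The part of these cell types in the tail differences was not tested, and in whole skin fewer cells of a type and less RNA per cell cannot be told apart.

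In anagen back skin, 3 members were called higher than in non-anagen back skin, beside 0.68% of all genes, and none lower, beside 0.00531%. They were Crnn, S100a3 and S100a7a. At any size 4 passed as higher, with Lce3c added, beside 4.11%, and 5 as lower, beside 3.59%: Lor, Lce1b, Lce1c, Lce1l and Flg2. No member separated the anagen from the non-anagen arrays completely, beside 0.0106% of all genes.

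Crnn rose by 3.54 ± 0.28 (adjusted p = 2.04e-19), averaging 8.41 ± 2.53 in anagen and 4.90 ± 0.39 in non-anagen back skin (SD, n = 14 and 85). Of the 14 anagen arrays, 9 were above every non-anagen array and the other 5 were not. S100a3 rose by 2.38 ± 0.22 (adjusted p = 5.79e-16), again with 9 of 14 anagen arrays above all non-anagen ones. S100a7a, the mouse relative of the human psoriasin family, was 5.34, 6.43 and 7.90 in tail skin, 5.11, 6.80 and 10.22 in anagen back skin, and 4.99, 5.81 and 6.55 in non-anagen back skin. It rose by 1.43 ± 0.19 (adjusted p = 1.07e-08), with 8 of 14 arrays above all non-anagen ones. The SD in anagen and non-anagen back was 1.75 and 0.26 for S100a7a, and 1.51 and 0.58 for S100a3. Because limma used 1 spread for both groups, the SEs and p-values of Crnn, S100a3 and S100a7a understate the anagen spread.

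Members that fell in anagen skin did so by less than the size limit, as did other epidermal genes: 5 of 8 basal genes (median -0.27) and 3 of 8 suprabasal genes (median -0.13) passed as lower, and none of either as higher. The part of these lists in the falls was not tested. Flg2 fell by 0.47 ± 0.10 (adjusted p = 0.000372), with 5 of 14 anagen arrays below every non-anagen array. Lor fell by 0.30 ± 0.07 (adjusted p = 0.00146), Lce1l fell by 0.31 ± 0.09 (adjusted p = 0.0163), Lce1c fell by 0.27 ± 0.08 (adjusted p = 0.0262) and Lce1b fell by 0.26 ± 0.08 (adjusted p = 0.0217). Of the 10 Lce1 differences, 9 were below 0, from -0.37 to -0.13, with Lce1g at 0.05. Lce3c was higher by 0.50 ± 0.16 (adjusted p = 0.0404). Ivl (0.04), Crct1 (0.05), Rptn (0.23), S100a8 (0.07), S100a9 (0.18), S100a4 (-0.31) and S100a6 (0.17) did not pass.

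Inner root sheath and shaft markers moved with the same arrays: 7 of the 10 and 7 of the 8 were called higher in anagen skin. Padi3 (2.30) and Padi1 (1.5) were called higher among the 19 processing genes, none lower, and Tchh (3.95), Tchhl1 (2.27) and Sprr1b (1.13) among the 22 other envelope genes. The anagen arrays were not alike in this, so the members were set against the mean of the 10 inner root sheath markers across the 14 anagen arrays, a comparison added after the group values were seen. The limma slope was positive for 7 members, beside 4.31% of all genes, and negative for 7, beside 3.67%.

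Crnn rose by 1.46 ± 0.08 per unit of the inner root sheath mean (adjusted p = 2.03e-09), with Pearson's r = 0.98 and Spearman's rho = 0.94. S100a7a rose by 0.98 ± 0.08 (adjusted p = 1.75e-07; r = 0.96, rho = 0.98) and S100a3 by 0.85 ± 0.07 (adjusted p = 7.38e-07; r = 0.95, rho = 0.98). S100a1, S100a6, S100a16 and Lce3a made up the other positive slopes. Flg2 fell by 0.34 ± 0.05 (adjusted p = 0.000547; r = -0.88, rho = -0.85) and Lor fell by 0.22 ± 0.04 (adjusted p = 0.00326; r = -0.86, rho = -0.85), joined by Lce1a2, Lce1b, Lce1d, Lce1e and Lce1l. Permutation p-values of r over the 14 arrays were 1e-05, the smallest that 100000 permutations give, for the 3 positive relations named with an r, and 8e-05 for Flg2 and Lor. Adjusted over the 18 relations computed with list means they were 1.5e-05 and 0.000103. Without the 2 arrays farthest from the median of the list mean, r was 0.99 for Crnn, 0.95 for S100a7a, 0.94 for S100a3, -0.85 for Flg2 and -0.81 for Lor.

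**Figure D3:**
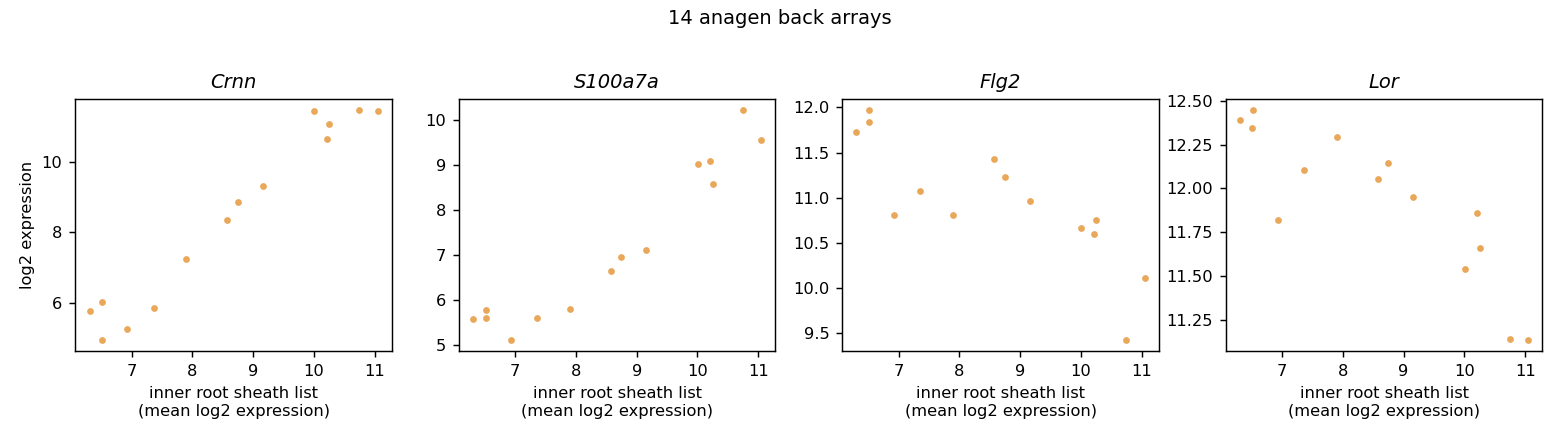
Log2 expression of Crnn, S100a7a, Flg2 and Lor (y axes) against the mean log2 expression of 10 inner root sheath markers (x axis) in the 14 anagen back arrays, 1 point per array. Crnn and S100a7a climb with the list (r = 0.98 and 0.96), and Flg2 and Lor decline (r = -0.88 and -0.86). Points are unadjusted values, whereas r was computed after adjustment for sex.

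Across the 97 tail arrays, 7 members had a positive slope on the inner root sheath mean, beside 12.4% of all genes, and 3 a negative one, beside 10.1%. Crnn again rose most, by 1.2 ± 0.04 per unit (adjusted p = 1.76e-52; r = 0.96, rho = 0.95, r = 0.95 without the 2 farthest arrays). S100a7a rose by 0.57 ± 0.05 (adjusted p = 5.31e-20; r = 0.79, rho = 0.84, r = 0.77 without 2) and S100a3 by 0.46 ± 0.03 (adjusted p = 2.49e-25; r = 0.85, rho = 0.84, r = 0.83 without 2). Each had a permutation p of 1e-05, the smallest possible, and 1.5e-05 adjusted. S100a1, S100a4, S100a6 and Rptn were the other positive members, and Lce1a2, Lce1l and S100a11 the negative ones. With the arrays brought to a common median, 3 members had a positive slope (Crnn, S100a3 and S100a7a) and 3 a negative one, while over all genes the positive slopes numbered 1276 and the negative 4679, against 2332 and 1893 as deposited. Without the tail arrays that stood apart, 5 had one. Lor (-0.02) and Flg2 (-0.06), which fell with the list in anagen back skin, did not pass in tail skin (adjusted p = 0.477 and 0.53), and a difference between the slopes of the tissues was not tested.

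The spread of the tail arrays was also set against the mean of the 12 keratinocyte stress genes, again after the values were seen. Of the members, 8 had a positive slope, beside 7.8% of all genes, and 0 a negative one by limma, beside 5.21%. S100a8 rose by 2.47 ± 0.15 per unit of the stress mean (adjusted p = 1.6e-25), S100a9 by 1.81 ± 0.16 (adjusted p = 2.12e-15) and Rptn by 1.13 ± 0.10 (adjusted p = 4.05e-17). Lce3f (0.83), Lce3c (0.71) and Lce3a (0.68) followed, then S100a7a (0.31) and Lce6a (0.21). Most tail arrays had Lce3f within the low end (median 3.87, upper quartile 4.26, highest 7.12), where its values cannot be read as expression. No Lce1 gene passed.

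For S100a8 r was 0.86 and rho 0.84 (n = 97 arrays), with r = 0.82 without the 2 farthest arrays. For Rptn they were 0.77, 0.73 and 0.73, for S100a9 0.74, 0.67 and 0.68, and for Lce3f 0.67, 0.58 and 0.60. Lce3a gave 0.57, 0.39 and 0.44, and Lce3c 0.55, 0.42 and 0.48. Every r of these 6 had a permutation p of 1e-05, the smallest possible, and 1.5e-05 adjusted. Against the neutrophil marker mean in the same tails, r was 0.26 and rho 0.11 for S100a8 (permutation p = 0.00911 and 0.29, adjusted p of r = 0.0102, r = 0.16 without 2), and 0.28 and 0.14 for S100a9 (permutation p = 0.00534 and 0.161, adjusted p of r = 0.00641, r = 0.20 without 2). The neutrophil marker means lay within the low end of the scale in tail and non-anagen back, so an r with them may understate a relation. In non-anagen back skin S100a8 had r = 0.11 and rho = 0.16 with the stress mean (permutation p = 0.331 and 0.132, adjusted p of r = 0.35, r = 0.10 without 2) and r = 0.01 and rho = 0.05 with the neutrophil mean (permutation p = 0.92 and 0.618, adjusted p of r = 0.92, r = -0.0038 without 2). The S100a8 median there, 5.27, lies within the low end of the scale, so these r values may also be understated.

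**Figure D4:**
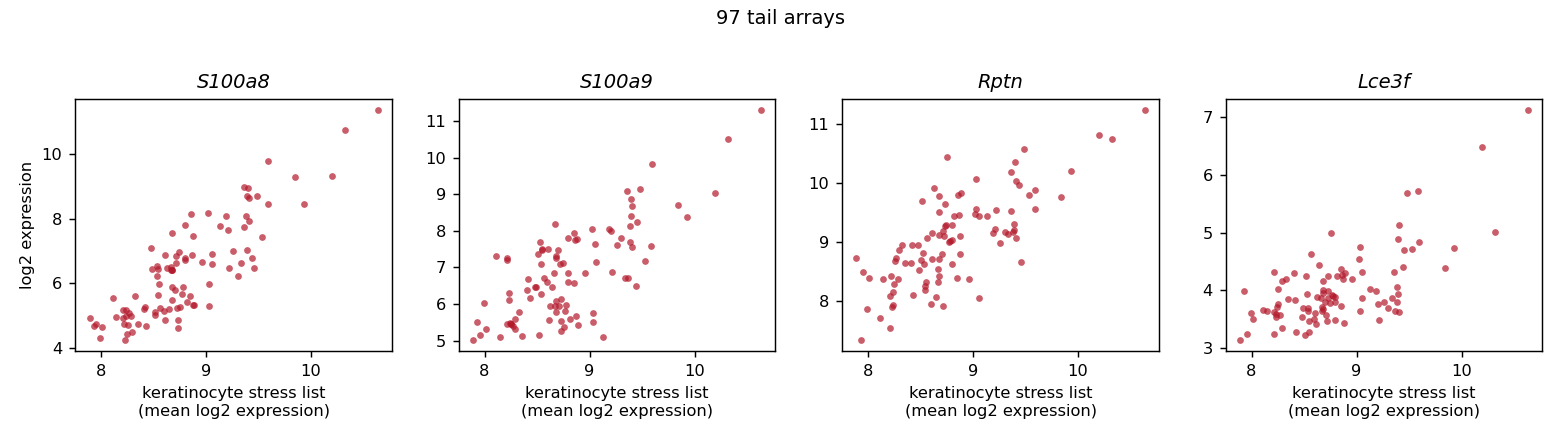
Log2 expression of S100a8, S100a9, Rptn and Lce3f (y axes) against the mean log2 expression of 12 keratinocyte stress genes (x axis) in the 97 tail arrays, 1 point per array. All 4 climb with the list, with r of 0.86, 0.74, 0.77 and 0.67. Points are unadjusted values, whereas r was computed after adjustment for sex and batch. Most Lce3f values lie within the low end of the scale.

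Tails were also grouped by the hair cycle state of the same mouse's back. None of the 35 members was called between tails of mice with anagen backs and tails of mice with non-anagen backs (limma, beside 0.0% of all genes, of which 796 had an unadjusted p under 0.05). Of the members, 6 had an unadjusted p under 0.05. The differences were 0.65 ± 0.17 for Lce3a, 1.05 ± 0.42 for S100a8, 0.94 ± 0.35 for S100a9 and 0.38 ± 0.18 for Lce3f, while Crnn was at -0.59 ± 0.25 and S100a3 at -0.28 ± 0.11. Lce3f averaged 4.37 in tails of mice with anagen backs and 3.97 in tails of mice with non-anagen backs, within the low end. S100a8 averaged 7.32 ± 1.90 in tails of mice with anagen backs and 6.25 ± 1.40 in tails of mice with non-anagen backs (SD, n = 14 and 82). The 14 tails include the tail array least like its group (r = 0.966 with the median profile), which stood apart. They also hold the highest tail values of Lce3a (9.08), S100a8 (11.36), S100a9 (11.29) and Lce3f (7.12). Without the arrays that stood apart 0 genes were called, and the differences of the 6 members without that array are not given here. The anagen difference in the back exceeded that in the tails of the same mice in 3 members, beside 0.776% of all genes: Crnn by 4.13 ± 0.39 (adjusted p = 3.38e-18), S100a3 by 2.66 ± 0.25 (adjusted p = 5.62e-18) and S100a7a by 1.58 ± 0.25 (adjusted p = 3.93e-07). Their SEs also pool the anagen arrays with the less variable groups.

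The largest difference between females and males among the members was that of S100a8 in non-anagen back skin, the 16th highest of all genes, and the median size in that tissue was 0.134 over members and 0.0718 over all genes. In tail skin none of the 35 members was called higher or lower in females by limma, beside 1.64% and 1.2% of all genes, although S100a5 and S100a7a had an unadjusted p under 0.05 (0.012 and 0.00489). In non-anagen back skin 7 members were called higher in females, beside 6.19%, and 2 lower, beside 6.11%. S100a8 was 4.30, 5.63 and 7.91 in female backs and 4.11, 5.0 and 6.27 in male backs, a difference of 0.79 ± 0.18 (adjusted p = 0.00106) between groups that overlapped widely. The male median lies within the low end of the scale. S100a9 averaged 5.63 in female and 5.59 in male non-anagen backs and was not called. In anagen back skin S100a8 averaged 5.23 in 8 females and 5.89 in 6 males, a difference that was not tested. Ivl was 9.87, 10.68 and 11.16 in female backs and 9.87, 10.47 and 10.94 in male backs, higher by 0.25 ± 0.06 (adjusted p = 0.00286). Lce1b (0.20), Lce1c (0.18), Lce1e (0.18), Flg2 (0.18) and Crct1 (0.13) were also higher in females, and S100a1 (-0.23) and S100a16 (-0.13) lower. S100a1 and S100a16 did not pass with arrays brought to a common median (adjusted p = 0.0632 and 0.073), nor did Flg2, Lce1c and S100a16 in batch 1 alone (0.13, 0.0543 and 0.0614), nor Lce1e and S100a1 without the array that stood apart (0.0549 and 0.0502).

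The sex difference in tail minus that in non-anagen back was tested directly, and 2 members were called lower, beside 4.63% of all genes, and none higher, beside 4.46%, a share near the background. The sex difference of Ivl was -0.11 ± 0.06 in tail and 0.25 ± 0.06 in back, and these differed by -0.36 ± 0.09 (adjusted p = 0.00377). For Lce1b it was -0.03 ± 0.04 in tail and 0.20 ± 0.05 in back, which differed by -0.23 ± 0.06 (adjusted p = 0.0117). For S100a8 it was 0.35 ± 0.31 in tail and 0.79 ± 0.18 in back, and these did not pass (-0.44 ± 0.37, adjusted p = 0.513).

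**Figure D5:**
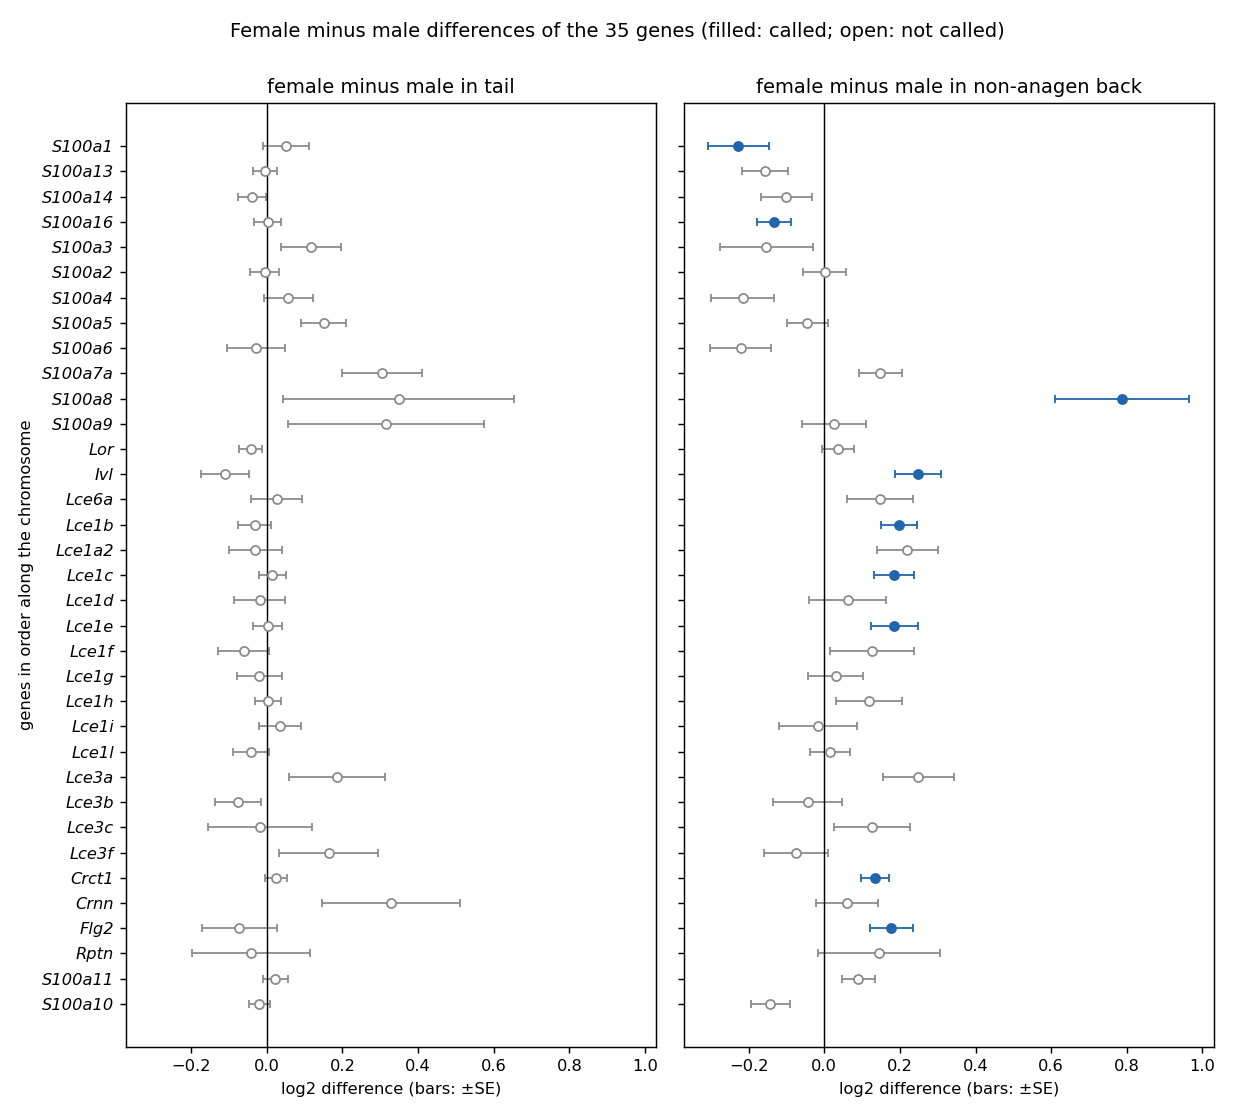
Female minus male log2 difference (x axis) of the 35 genes in chromosomal order, in tail (left) and in non-anagen back (right), with SE and filled points where called. No gene is called in tail, and in back 7 lie above and 2 below 0, up to 0.79 for S100a8.

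Levels of each member in the tail and the back of the same mouse were correlated. Over the 82 mice with tail and non-anagen back arrays, 3 of the 35 members were positively correlated between the tissues after adjustment for sex and batch, beside 8.93% of all genes, a share near the background. Lce1h had r = 0.47 and rho = 0.47 (permutation p = 1e-05, the smallest possible, adjusted p = 0.000323 over all genes, r = 0.46 without the 2 farthest mice). S100a6 had r = 0.37 and rho = 0.45 (permutation p = 0.00055 and 4e-05, adjusted p = 0.0123, r = 0.36 without 2; r = 0.33 and adjusted p = 0.056 within batches 1 and 4), and Lce1c r = 0.36 and rho = 0.38 (permutation p = 0.0007 and 0.00044, adjusted p = 0.0142, r = 0.39 without 2). The median r was 0.04 over the members and 0.08 over all genes, and 23 of the 35 were above 0. At the negative end, S100a3 had r = -0.26 and rho = -0.29 (permutation p = 0.0168 and 0.00774, adjusted p = 0.127, r = -0.26 without 2) and S100a2 r = -0.24 and rho = -0.23 (permutation p = 0.0307 and 0.035, adjusted p = 0.186, r = -0.22 without 2), neither past the adjusted limit. S100a2 values were within the low end of the scale, so its r cannot be read as a relation of expression. Flg2 (0.00), Lor (-0.09) and Lce1b (0.02) were close to 0.

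Chosen pairs of members were correlated within each tissue, 10 relations in all over 97 tail and 85 non-anagen back arrays. S100a8 and S100a9, the subunits of calprotectin, had r = 0.85 and rho = 0.79 in tail (permutation p = 1e-05, the smallest possible, adjusted p = 3.33e-05, r = 0.81 without the 2 farthest) and r = 0.34 and rho = 0.33 in back (permutation p = 0.00149 and 0.00224, adjusted p = 0.00298, r = 0.33 without 2). Of all genes, 0.0106% in tail and 2.71% in back had an r to S100a8 at least as high. The S100a8 median in non-anagen back, 5.27, lies within the low end of the scale, so its r in back may be understated. S100a4 and S100a6 had r = 0.46 and rho = 0.47 in tail (permutation p = 1e-05, adjusted p = 3.33e-05, r = 0.41 without 2) and r = 0.44 and rho = 0.40 in back (permutation p = 3e-05 and 0.00019, adjusted p = 7.5e-05, r = 0.35 without 2). An r to S100a4 at least as high was found for 2.87% of all genes in tail and 5.86% in back.

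S100a10, which binds annexin A2, and S100a11, which binds annexin A1, had r = -0.06 and rho = 0.04 in tail (permutation p = 0.575 and 0.661, adjusted p = 0.633, r = 0.0025 without 2) and r = -0.50 and rho = -0.56 in back (permutation p = 1e-05, adjusted p = 3.33e-05, r = -0.52 without 2). The tail value became 0.38 with arrays brought to a common median, while the back value became -0.41. S100a11 has a second probe set, which averaged 11.28 in tail, 11.56 in anagen back and 11.67 in non-anagen back, against 11.30, 11.58 and 11.70 on the one used. Lor and Ivl had r = 0.18 and rho = 0.18 in tail (permutation p = 0.0745 and 0.0794, adjusted p = 0.101, r = 0.18 without 2) and r = 0.19 and rho = 0.14 in back (permutation p = 0.0804 and 0.189, adjusted p = 0.101, r = 0.11 without 2). Rptn and Crct1 had r = 0.05 and rho = 0.08 in tail (permutation p = 0.633 and 0.414, adjusted p = 0.633, r = 0.04 without 2) and r = 0.25 and rho = 0.29 in back (permutation p = 0.0239 and 0.00786, adjusted p = 0.0398, r = 0.24 without 2). An r to Rptn at least as high was found for 46.1% of all genes in tail and 13.1% in back. To Lor these shares were 9.02% and 21.6%, and to S100a10 they were 45.0% and 99.8%.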

How the data were processed

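Biotin-labelled cRNA from 1 ug of total RNA per sample was hybridised to mouse gene arrays. The deposited values are log2 expression values that the authors made with RMA, per the submitters' processing notes, with a version not given in the sources used here. Of 35556 probe sets, the 21218 naming 1 gene were used, which gave 18820 genes, with the probe set of highest mean kept where a gene had several. Neither dim genes nor arrays were removed. Precision is limited by how many arrays each group has. In each fit limma used 1 spread per gene for all groups. Where the anagen arrays varied more than the others, SEs and p-values of comparisons with them are too small.

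Differences were fitted over all genes with limma 3.58.1 in R 4.3.3, with sex as a covariate, batch within tissue where a tissue was compared with itself, and Benjamini-Hochberg adjustment over all genes. Sex comparisons and slopes were called at an adjusted p under 0.05 alone. The fit was tested on simulated data. Correlations used values adjusted for sex and batch, with two-sided tests of 100000 permutations (Python 3.11.15, numpy 2.4.6, pandas 2.3.3, scipy 1.17.1, matplotlib 3.10.9, Biopython 1.88). For correlations between tissues, p was adjusted through 100 random pairings of mice pooled over all genes. The mouse number pairs the tissues: the median correlation of a tail array's deviations from its group with those of its own mouse's back was 0.164, against 0.000146 for other mice.

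The members and the gene lists were chosen with earlier results of these data known. Values in every group are given for members called in the tail or anagen comparison and for Lor, Flg2, Rptn, Ivl, Crnn, Crct1, S100a3, S100a4, S100a6, S100a8 and S100a9, and at most 4 called genes are named for a list in a comparison. Flg and Hrnr, in the same rule, and 5 of the 10 planned pairs were not analysed because a gene lacked a probe set of its own. Alternatives were other array scalings, all probe sets averaged, a filter on dim genes, a trended robust prior, the mouse as a replicate block, batches 1 and 4 only, no sex term, and, chosen after seeing the data, leaving out arrays that stood apart. The slopes and the relations with list means were also chosen after seeing the data. Promoter sequences are from RefSeq (GRCm38.p6). Symbols came from the platform annotation.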

Additional observations from a re-analysis of the deposited data

Results flagged for a closer look

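The difference between the sexes was not the same in both tissues for 2 members, by an interaction test, a share of the 35 near the 4.63% of all genes called the same way. Female minus male was lower in tail than in non-anagen back for both, with a difference of -0.36 for Ivl and -0.23 for Lce1b.

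The anagen difference in the back was not the same as that between the tails of the same mice for 3 members, again by an interaction test, beside 0.776% of all genes. It exceeded the tail difference by 4.13 for Crnn, by 2.66 for S100a3 and by 1.58 for S100a7a.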

How the results depend on the processing

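Of 729 values recomputed under an alternative, 694 stayed the same by the rule for their kind. Differences, slopes and correlations between tissues had to keep their direction and their side of the threshold, and counts to stay within the limits set. Correlations of member pairs had to keep their sign and stay within the SE of the main r, with no threshold checked. With arrays shifted to the same median, which moved the median tail minus non-anagen back difference of all genes to -0.21, members called lower in tail numbered 2 against non-anagen back and 2 against anagen back, Ivl having been added in the non-anagen comparison, and S100a4 turned to -0.14 (adjusted p = 0.0131). Members called lower in female non-anagen backs then numbered 0, those with a positive slope on the inner root sheath mean in tail 3, and r in tail was -0.057 for Rptn with Crct1 and 0.38 for S100a10 with S100a11. With renewed quantile normalization, 2 and 2 members were called lower in tail, S100a4 was at -0.18 (adjusted p = 0.00294), 4 members were lower in female non-anagen backs, and the sex difference differed between tissues in 2 members as higher and 4 as lower. With dim genes filtered out, 4 members were lower in female backs and 1 had a higher sex difference in tail than in back. Without the arrays that stood apart, 1 was lower in female backs. The cause was not tested. Over all genes, genes called higher and lower in tail against anagen back numbered 627 and 318, 408 and 494 with the common median, and 430 and 427 after quantile normalization; higher and lower in female tails 309 and 225, and 388 and 445; and with a higher and lower sex difference in tail 839 and 872, and 811 and 1381.

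With the mouse as a random replicate block, 1 member had a higher sex difference in tail than in back, and no other count of members called moved by over 1.5 times: the paired fits gave 10 members higher and 1 lower in tail than in non-anagen back. Anagen and non-anagen back skin share no mouse, so that comparison has no paired fit.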
